A study of Rattus norvegicus with 7 samples.

Results

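Of the 6123 peaks that the authors listed for Arteridin and YBX1 in rat A10 cells, 232 lay outside the assembled nuclear chromosomes. They were chosen by the sequence name alone, as every peak whose sequence is not chromosome 1 to 20, X or Y, and fell into 2 classes, the mitochondrial genome and scaffolds. A10 is a smooth muscle line from the rat thoracic aorta. Chromatin immunoprecipitation sequencing (ChIP-seq) was done with a custom rabbit antibody against full-length Arteridin, in cells with overexpression of Arteridin (ORF) and without it (CTR), and with antibodies against YBX1, in cells overexpressing Arteridin-FLAG (ART), in cells overexpressing the lncPSR ATT mutant (PSR) and in cells labelled NC. The design text names an untreated condition, to which NC was matched because the other titles took the rest. Plasmids were transfected, and the labels do not say whether CTR and NC cells received an empty one. Each condition had 1 library, so no difference between conditions has a replicate check and no p-value is given.

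The mitochondrial genome is a small circular DNA present in many copies per cell, packed by proteins other than histones, and coding for subunits of the respiratory chain and for its own ribosomal and transfer RNAs. Scaffolds are assembled pieces that could not be joined into a chromosome, often because they hold repeats or copies of other sequence. An unplaced scaffold has no known chromosome, and an unlocalised one has a chromosome but no position on it. Both kinds of sequence are often set apart in ChIP-seq, because copy number differs from that of ordinary chromosomes. YBX1 is a cold-shock domain protein that binds DNA and RNA. The series title speaks of coding and non-coding products of the gene named Phenotype Switching Regulator.

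The mitochondrial genome held 27 of 3013 ORF peaks (0.896%, 95% Wilson interval 0.617 to 1.30) and 25 of 2079 CTR peaks (1.20%, 0.816 to 1.77). None of the 608 ART, 341 PSR and 82 NC peaks lay on it, and the sources used here do not say whether the reference used for YBX1 held the mitochondrial sequence. Scaffolds held 64 ORF peaks (2.12%, 1.67 to 2.70), 83 CTR peaks (3.99%, 3.23 to 4.92), 19 ART peaks (3.13%, 2.01 to 4.83), 11 PSR peaks (3.23%, 1.81 to 5.68) and 3 NC peaks (3.66%, 1.25 to 10.2). The CTR list was the shorter of the Arteridin lists and held more scaffold peaks. Positions are counted from 1 under the sequence names of the lists, which match the rat assembly Rnor_6.0. The labels name no build. The 2 antibodies' lists name scaffolds differently, so the antibodies were not compared on them, apart from a match of position numbers described at the end.

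Arteridin peaks on the mitochondrial genome rested on many reads and had low fold. The fold of a peak is the authors' ratio of reads at its highest point, the summit, to the level expected there, with 1 added to each. The number of reads and the expected level were recovered from the fold and the p-value of each narrow peak. The 27 ORF summits had 60 to 82 reads, with a median of 69, and the 25 CTR summits had 58 to 81, also with a median of 69. Few peaks elsewhere reached the lowest of these, 5 of 2986 in ORF and 9 of 2054 in CTR. The expected level was 23.5 to 46.0 reads in ORF and 24.0 to 37.9 in CTR. Its medians, 31.4 and 30.5, were 86.8 and 87.5 times the lowest level of each list, which stands for the genome background. The resulting folds were 1.76 to 2.94 in ORF and 1.81 to 2.76 in CTR. By fold the best mitochondrial peak ranked 2957 of 3013 in ORF and 2032 of 2079 in CTR. By −log10 q, the caller's significance after correction for multiple tests, the best ranked 72 in ORF and 87 in CTR. Only 8 other peaks of each list had an expected level at least as high as the lowest mitochondrial one. None of them was on a scaffold, and their median folds were 1.94 and 2.01.

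**Figure D1:**
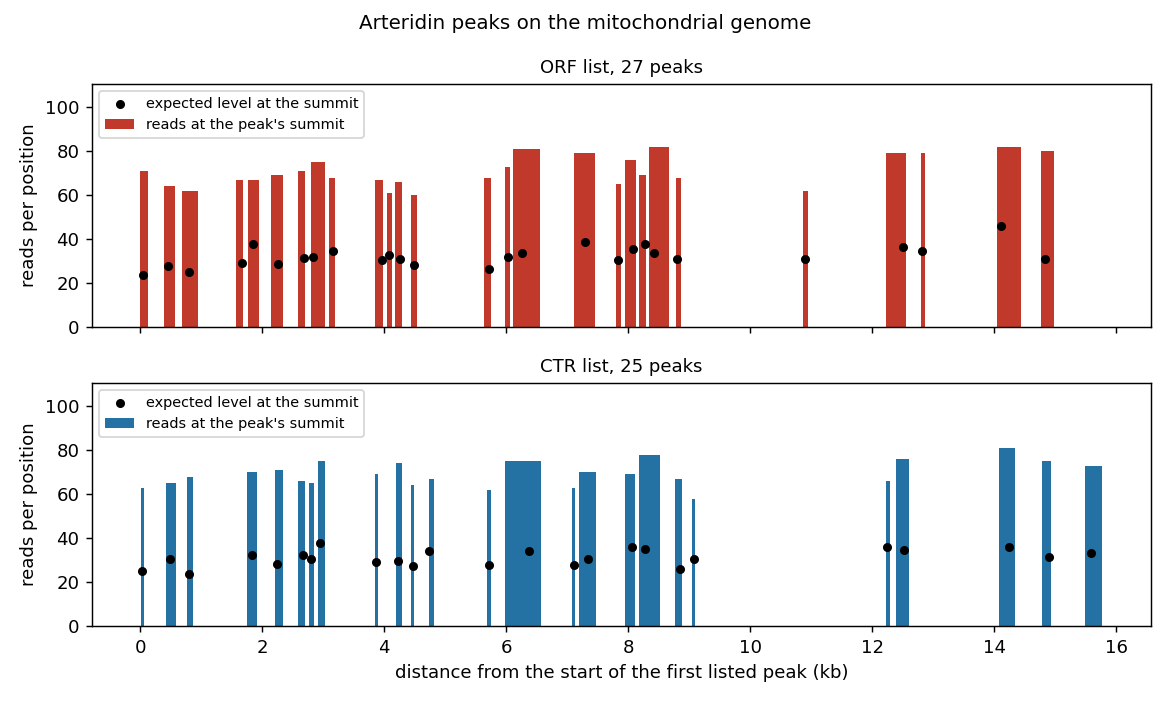
Arteridin peaks along the mitochondrial genome, with distance from the start of the first listed peak in kb on the horizontal axis and reads per position on the vertical axis. Each bar spans 1 peak and is as high as the reads at its summit, and black points give the expected level there. Bars stand at 58 to 82 reads in both lists, points at 23.5 to 46.0, and between 10 and 12 kb a single ORF peak is listed.

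The peaks were spread along the mitochondrial genome in both lists. Of the ORF peaks 9 had their summits in the first 4 kb, 8 between 4001 and 8000, 6 between 8001 and 12000 and 4 between 12001 and 16000. The CTR list had 8, 8, 4 and 5 in the same stretches. No CTR peak was listed from 9280 to 12415, a stretch of 3136 bp, where ORF had 1 peak, 11044 to 11131, before its next one began at 12413. Together the peaks covered 4753 bp in ORF and 3870 bp in CTR, which is 31.7% and 24.6% of the span from the first to the last peak of each list.

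Most mitochondrial peaks were found with and without overexpression. Overlap was counted from 1 bp. Of the ORF peaks 21 of 27 (77.8%, 59.2 to 89.4) overlapped a CTR peak, against 22.6% over all ORF peaks. Of the CTR peaks 22 of 25 (88.0%, 70.0 to 95.8) overlapped an ORF peak, against 33.2% over all CTR peaks. The intervals cover counting error only, neighbouring peaks are not independent, and no test of this difference was made. The part of the coverage of 31.7% and 24.6% in this overlap was not tested. Merging the peaks of both lists gave 28 mitochondrial regions, of which 19 were in both, 6 in ORF alone and 3 in CTR alone. When the −log10 q had to reach 5, which left 7 peaks in ORF and 5 in CTR, a single region was shared, 14954 to 15169.

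Reads at the shared mitochondrial regions were close between the libraries. Over the 19 regions the ORF over CTR ratio ran from 0.892 to 1.13 with a median of 1.01, or 0.981 after division by the ratio of the genome backgrounds (1.03). ORF had more reads at 11, CTR at 7, and 1 was equal. Each region was represented by its tallest peak in each list, so the compared summits could differ in position, by up to 154 bp. At the 8 regions with summits within 25 bp the median ratio was 1.06. Summed over these regions, ORF had 1367 reads to 1338 for CTR. The ratio was 1.02 with a 95% exact binomial interval of 0.947 to 1.10. No region differed by 1.5 times in either direction, where 9.68% of all 651 shared Arteridin regions were that much higher in ORF and 5.22% in CTR. Mitochondrial regions have many more reads than most, so ratios there scatter less by counting alone. Such intervals hold only the counting error of these 2 libraries and say nothing of the spread between cultures.

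The 5 shared mitochondrial regions with the highest ORF fold were these. The region from 186 to 314 had 71 reads in ORF against an expected 23.5 (fold 2.94), and 63 in CTR against 24.99 (2.46). Its ORF over CTR ratio was 1.13 (0.791 to 1.61). The region from 14954 to 15169 had 80 reads in ORF (fold 2.53) and 75 in CTR (2.34), a ratio of 1.07 (0.769 to 1.48). All 5 ratio intervals contain 1. The region from 5820 to 5929 had 68 and 62 reads, with summits 2 bp apart. The region from 873 to 1126 had 62 and 68 reads, and the CTR fold of 2.76 there was the highest of that list on the mitochondrial genome. The region from 8368 to 8847 held 2 ORF peaks and 1 CTR peak, whose tallest summits had 82 and 78 reads but lay 154 bp apart. The other ORF peak, 8368 to 8469, had its summit at 8452, near the CTR summit at 8458. It had 69 reads, fewer than the 78 of CTR. The remaining 14 shared regions had 60 to 82 reads in ORF and 64 to 81 in CTR.

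Regions listed in a single library had 61 to 79 reads in ORF, within the shared range of 60 to 82, and in CTR 58 to 73, where the shared ones had 62 to 81. ORF alone had 1751 to 1871 (67 reads, fold 2.26), 3275 to 3375 (68, 1.93), 4228 to 4305 (61, 1.83), 7977 to 8063 (65, 2.09), 11044 to 11131 (62, 1.97) and 12982 to 13045 (79, 2.24). CTR alone had 4912 to 5004 (67 reads, fold 1.93), 9222 to 9279 (58, 1.87) and 15666 to 15956 (73, 2.16). The last lies beyond the end of the last ORF peak at 15169. A region missing from a list has no value there, so its reads in that library were not measured. In ORF the shared peaks were longer than the unshared, with medians of 178 and 87.5 bp, and in CTR 114 and 93 bp.

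On scaffolds the Arteridin peaks were gathered on a single sequence. Scaffold NW_007906429.1 held 55 of the 64 ORF peaks and 70 of the 83 CTR peaks, 85.0% of both lists' scaffold peaks, and all of them lay in 1 segment of 31.9 kb from 572082 to 603935. The peaks covered 21.3% of the segment in ORF and 30.7% in CTR. On assembled chromosomes the densest window of the same length, near the start of chromosome 6 in both lists, held 62 ORF and 49 CTR peaks. The scaffold segment was thus less dense than that window in ORF and denser in CTR. CTR had 1.27 times as many peaks as ORF in the segment, and 0.675 times as many on assembled chromosomes.

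In contrast to the mitochondrial genome, the expected level in this segment was low and the folds were high. The median level was 0.361 in ORF and 0.363 in CTR, where the genome backgrounds were 0.361 and 0.349, and the highest were 0.940 and 0.925. Summits had 6 to 29 reads in ORF with a median of 9, and 5 to 35 in CTR with a median of 10. The median over each whole list was 8. The median fold was 7.22 in ORF and 7.41 in CTR, against 5.63 and 5.65 on assembled chromosomes. The −log10 q was 5 or more in 30 ORF peaks (54.5%) and in 44 CTR peaks (62.9%), against 15.3% and 13.2% on assembled chromosomes. The segment thus held 13.9% of the peaks of that strength in the CTR list and 6.15% in the ORF list. Of the 20 peaks with the highest fold in each list, 7 in ORF and 11 in CTR lay in the segment, and its best peak ranked 4 in ORF and 2 in CTR. Fold and −log10 q of the dense window on chromosome 6 alone are not given here. Whether the high values are particular to the segment is therefore not known.

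**Figure D2:**
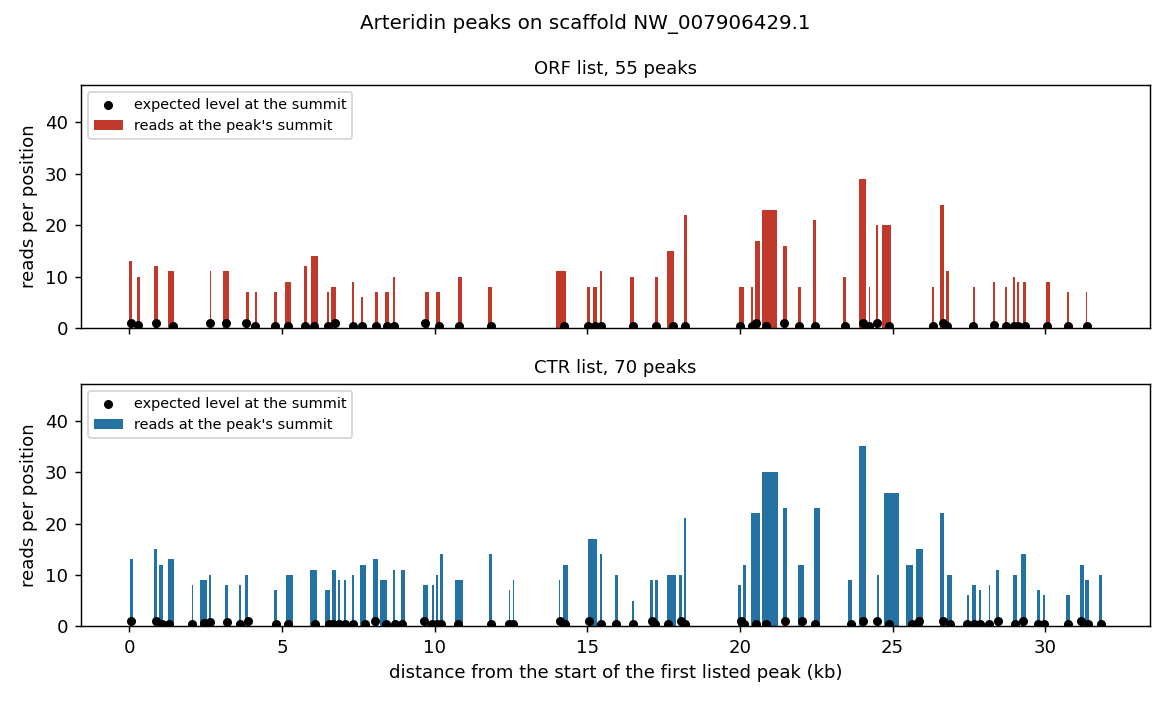
Arteridin peaks in the 31.9 kb segment of scaffold NW_007906429.1, with distance from the start of the first listed peak in kb on the horizontal axis and reads per position on the vertical axis. Each bar spans 1 peak and is as high as its summit reads, and black points give the expected level. The highest bars of both lists, 29 reads in ORF and 35 in CTR, stand at the same place, and all points lie below 1 read.

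The 6 shared regions with the highest ORF fold lay in the segment between 590237 and 598773, and 5 of them were also among the 6 with the highest CTR fold. The region from 592797 to 593314 had 23 reads in ORF (fold 17.6) and 30 in CTR (23.0), with summits at the same base. The region from 595968 to 596204 had the most reads of the segment, 29 and 35 (folds 15.5 and 18.7). Both show more reads in the CTR library, but the intervals of their ORF over CTR ratios, 0.425 to 1.37 and 0.489 to 1.40, contain 1. The region from 596750 to 597294 had 20 and 26 reads (folds 15.4 and 20.01). The region from 594488 to 594701 had 21 and 23 reads (15.2 and 16.7). The region from 590237 to 590358 had 22 and 21 reads (15.9 and 15.4), and 598626 to 598773 had 24 and 22 (12.9 and 11.9). In CTR the fourth highest fold of the segment, 17.05 with 22 reads, was in another region, 592457 to 592732, where ORF had 17 reads and a fold of 9.28. In each of the 6 regions chosen by ORF fold the summits of the libraries were at most 8 bp apart.

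The larger number of CTR peaks was not confined to a single stretch of the segment. Cut into 8 stretches of 4 kb, the last of them shorter, the segment had more CTR than ORF peaks in 6 and equal numbers in 2. The summed summit reads were higher in CTR in all 8. The difference in reads was smallest in the second (86 against 79) and the fifth (64 against 57), and largest in the third (107 against 56). These sums include peaks listed in 1 library and grow with the number called. The median summit was higher in CTR in 5 stretches and in ORF in 3, the first (11 against 10 reads), the fifth (12.5 against 9.5) and the seventh (15.5 against 11). The stretch from 596082 to 600081 had the highest sums, 128 reads over 8 peaks in ORF and 151 over 10 in CTR. The sixth had the largest CTR excess in the median, 17 against 13 reads.

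Among the 76 merged regions of the segment 43 (56.6%) were in both lists, 9 in ORF alone and 24 in CTR alone. Of all 4373 Arteridin regions 651 (14.9%) were in both, 2333 in ORF alone and 1389 in CTR alone. The share in both lists within the dense window of chromosome 6 is not given here, so high sharing may not be particular to the segment. At the 43 shared regions the summits summed to 506 reads in ORF and 575 in CTR. Their ratio was 0.880 (95% exact binomial interval 0.779 to 0.993). On assembled chromosomes the ratio over 587 shared regions was 1.08 (1.04 to 1.12). Most of these, 517, lay on chromosome 6, where the ratio was 1.08 (1.03 to 1.12), so this comparison is mainly with chromosome 6. Divided by the ratio of the genome backgrounds, 1.03, the segment ratio becomes 0.850 (0.753 to 0.960). The ratio on assembled chromosomes becomes 1.04 (1.01 to 1.08), and on chromosome 6 alone 1.04 (0.9998 to 1.08). CTR had more reads at 26 of the 43 regions and ORF at 12, with 5 equal, whereas on assembled chromosomes CTR had more at 199 and ORF at 283. CTR was at least 1.5 times higher at 8 of the 43 (18.6%), against 5.22% over all shared regions, and ORF at 3 (6.98%), against 9.68%. Over the 21 regions with summits within 25 bp the summed reads were 306 and 333, a ratio of 0.919 (0.784 to 1.08), and the interval contains 1. Among these 21, ORF was at least 1.5 times higher at 9.52% and CTR at 4.76%. With 21 regions these shares rest on very few regions, so no order is read from them. Shares over all regions with summits this close are not given here.

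**Figure D3:**
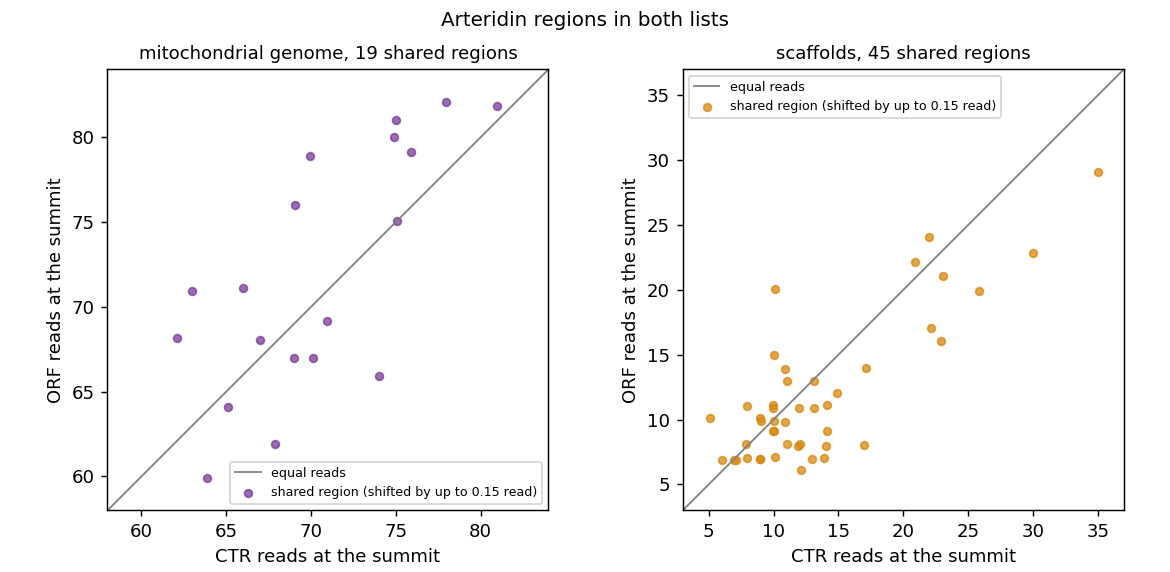
Reads at the summit in CTR (horizontal) and ORF (vertical) for each Arteridin region found in both lists, on the mitochondrial genome (left, 19 regions) and on scaffolds (right, 45 regions), with the line of equal reads. Points are shifted by up to 0.15 read so that equal values can be seen; mitochondrial points scatter about the line, and 27 of the 45 scaffold points lie on the CTR side of it.

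Peaks of the segment found in a single library were of modest height. By fold the highest of ORF alone was 577817 to 577916 with 12 reads and a fold of 9.55, followed by 595442 to 595543 with 10 reads (8.07) and 602120 to 602245 with 9 (7.35). In CTR alone the highest folds in the segment were at 573064 to 573194 with 12 reads (9.07) and 580976 to 581102 with 11 (8.89), and the most reads, 15, were at 597860 to 598066 (8.31). The scaffold peak of CTR alone with the highest fold lay elsewhere, on NW_007906433.1 from 33774 to 33826, with 17 reads (9.35). Over all scaffolds the shared peaks had medians of 10 reads in ORF and 11 in CTR, and the unshared 9 in both. Shared peaks were also longer, with medians of 113 against 67 bp in ORF and 125.5 against 76 bp in CTR.

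The other scaffolds held at most 5 Arteridin peaks per list. Of 12 scaffolds with an Arteridin peak 4 had one in both lists. Apart from the dense segment 2 of 20 merged regions (10%) were shared, against 14.9% of all regions and 13.8% of those on assembled chromosomes. The first shared region was NW_007906130.1 from 207 to 307, with 13 reads in ORF (fold 10.3) and 11 in CTR (8.89) at the background level. The second was NW_007906433.1 from 2654694 to 2654879, with 14 and 17 reads (5.21 and 6.31). On NW_007906433.1 ORF had 3 peaks and CTR 5, and on NW_007906421.1 ORF had 2 and CTR 1. The 2 ORF peaks of NW_007906421.1, at 1610125 and 5497159, had 12 and 14 reads, and its CTR peak, 1612113 to 1612164, had 53 reads against an expected 12.03 (4.14). That summit had the most reads of any scaffold peak.

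Some CTR peaks on scaffolds stood where the expected level was raised. NW_007906883.1 had peaks from 33 to 166 (34 reads, expected 8.33) and from 229 to 291 (38 reads, expected 14.8). NW_007906656.1 had 30 reads against 11.1, and NW_007906562.1 had 17 against 4.63. Their folds, 2.47 to 3.75, were below the CTR scaffold median of 7.27. None of these 3 scaffolds had an ORF peak. Conversely NW_007906434.1, NW_007906890.1 and NW_007906915.1 each had 1 ORF peak of 9 reads and none in CTR, and NW_007906412.1 and NW_007906960.1 each had 1 CTR peak of 7 reads and none in ORF.

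Arteridin scaffold peaks were shared more often than peaks on assembled chromosomes, and this rested on the dense segment. Of the ORF scaffold peaks 48 of 64 (75%, 63.2 to 84.0) overlapped CTR, against 20.9% (19.5 to 22.4) of those on assembled chromosomes. Of the CTR scaffold peaks 48 of 83 (57.8%, 47.1 to 67.9) overlapped ORF, against 31.5% (29.4 to 33.5). Without NW_007906429.1 these shares were 22.2% (6.32 to 54.7) and 15.4% (4.33 to 42.2), and both intervals then contain the value on assembled chromosomes. The part of the coverage of the segment, 21.3% and 30.7%, in its overlap was not tested.

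**Figure D4:**
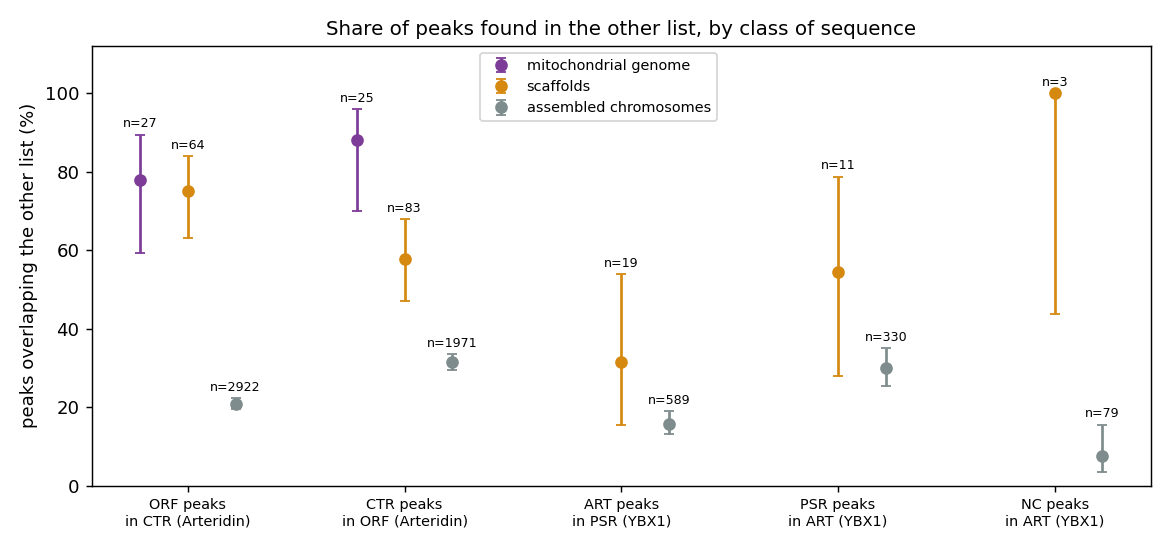
Share of peaks (percent, vertical axis) of the list named first that overlap a peak of the list named second by at least 1 bp, for the mitochondrial genome, scaffolds and assembled chromosomes. Bars are 95% Wilson intervals and n is the number of peaks; Arteridin shares on the mitochondrial genome and scaffolds lie at 57.8% to 88.0%, and at 20.9% and 31.5% on assembled chromosomes.

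YBX1 scaffold peaks were broad peaks of 2 kinds, on unplaced scaffolds and on scaffolds assigned to chromosome Y. Each list had 3 peaks of very high fold on unplaced scaffolds. The Y scaffold peaks had folds close to those of their lists on assembled chromosomes. On unplaced scaffolds there were 5 ART, 3 PSR and 3 NC peaks. On unlocalised Y scaffolds there were 14 ART peaks on 8 scaffolds, 8 PSR peaks on 5 scaffolds and no NC peak. An absent NC peak was not a measured absence. Reads could not be recovered for any YBX1 scaffold peak, and MACS2 gives the fold and −log10 q of a broad peak as averages over its region. A level was solved for only 20 of 82 NC, 26 of 608 ART and 14 of 341 PSR peaks. The lowest solved levels, 0.0480 reads in NC, 0.362 in ART and 0.380 in PSR, are therefore uncertain as backgrounds.

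The same 3 unplaced scaffolds carried peaks among the 4 highest by fold in every YBX1 list. chrUn_AABR07022335v1 had a peak from 1 to 629 in NC, from 5 to 625 in ART and from 2 to 624 in PSR, so that 620 bp were common. Its fold was 66.4 in NC, 30.6 in ART and 38.6 in PSR, with −log10 q values of 171.9, 86.0 and 120.5. chrUn_KL568292v1 had a peak of 297 bp in NC from 1201 to 1497, of 260 bp in ART from 1213 to 1472 and of 285 bp in PSR from 1203 to 1487. Its folds were 69.1, 28.5 and 26.5. chrUn_KL568304v1 had peaks of 1235 bp in NC (5945 to 7179), 1201 bp in ART (5952 to 7152) and 1233 bp in PSR (5949 to 7181), with folds of 60.9, 28.4 and 36.9. The ends of each region agreed within 4 to 29 bp across the lists. By fold these peaks ranked 1 to 3 in ART and in PSR, and 2 to 4 in NC. In NC 6 peaks reached a −log10 q of 5, and 3 of them were these. Folds depend on each list's background and are not compared between lists.

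ART had 2 more peaks on unplaced scaffolds. chrUn_KL568273v1 had one from 2098 to 3214 at fold 3.72 and −log10 q 20.5, which was not listed in PSR or NC. chrUn_KL568451v1 had one from 159821 to 161043 at fold 4.88 and −log10 q 2.37.

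**Figure D5:**
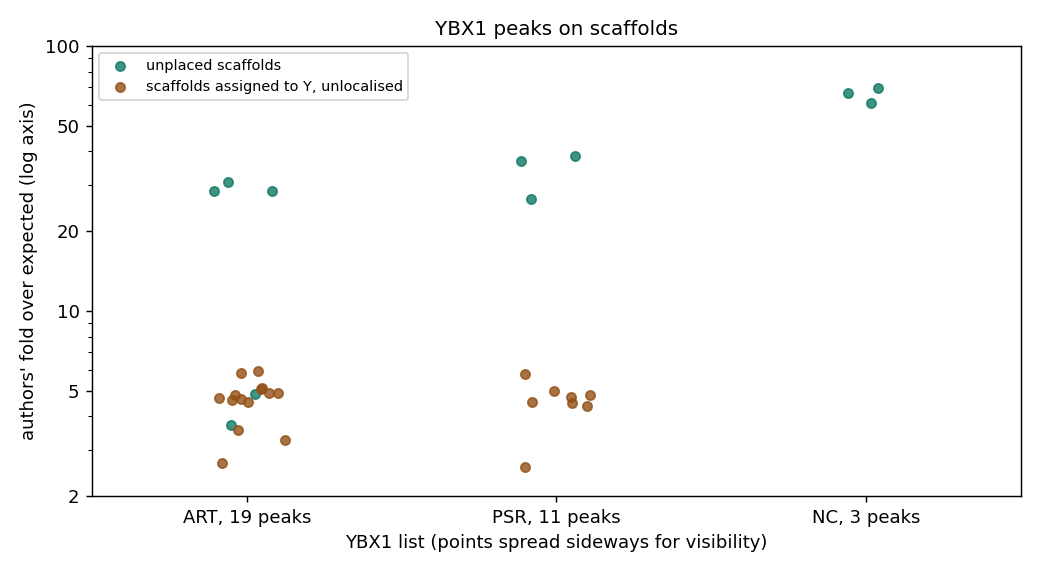
The authors' fold over the expected level (vertical, log axis) of every YBX1 scaffold peak in the ART, PSR and NC lists, with unplaced scaffolds in green and unlocalised Y scaffolds in brown. In each list 3 unplaced peaks stand at 26.5 or above, and all Y scaffold peaks lie between 2.59 and 5.96.

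The peaks on Y scaffolds were mostly listed once, as were the peaks of the ART and PSR lists as a whole. Their folds were 2.66 to 5.96 in ART, with a median of 4.77, and 2.59 to 5.80 in PSR, with a median of 4.64. On assembled chromosomes the median folds were 4.41 and 4.45. The −log10 q of the Y peaks reached 4.08 and 3.53, with medians of 2.49 and 1.95, against 2.17 and 2.01 on assembled chromosomes. There 8.83% of ART and 7.88% of PSR peaks had a −log10 q of 5 or more, and no Y peak did. Over both lists 19 merged regions lay on 10 Y scaffolds, 3 of them in both, 11 in ART alone and 5 in PSR alone. The shared regions held 3 of the 14 ART peaks, where 16.3% of all ART peaks overlapped PSR. They held 3 of the 8 PSR peaks, where 30.8% of all PSR peaks overlapped ART. The first shared region, chrY_KL568160v1_random from 2654380 to 2654865, had folds of 2.66 in ART and 2.59 in PSR, the lowest of the Y peaks in each list. The second, also on chrY_KL568160v1_random, ran from 2983052 to 2983557 with folds of 4.83 and 5.80. The third, chrY_KL568161v1_random from 7238653 to 7239313, had folds of 4.62 and 4.38, and the −log10 q of 1.37 in PSR was the lowest of that list on scaffolds. chrY_KL568161v1_random held the most peaks, 4 in ART and 2 in PSR, and chrY_KL568160v1_random held 3 and 2.

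The strongest Y scaffold peaks found in ART alone were chrY_KL568152v1_random from 366874 to 367140 (fold 5.96), chrY_KL568143v1_random from 331601 to 331854 (5.83) and chrY_KL568159v1_random from 298786 to 299112 (5.10). In PSR alone they were on chrY_KL568139v1_random from 9366775 to 9367035 (4.98) and from 910418 to 910667 (4.80), and on chrY_KL568162v1_random from 9380961 to 9381491 (4.74). On chrY_KL568139v1_random the ART list had a peak at other positions, from 965793 to 966875.

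Over all scaffolds 6 of 19 ART peaks (31.6%, 15.4 to 54.0) overlapped PSR, against 16.3% of all ART peaks, and 6 of 11 PSR peaks (54.5%, 28.0 to 78.7) overlapped ART, against 30.8% of all PSR peaks. All 3 NC scaffold peaks overlapped ART and PSR (100%, 43.9 to 100), against 11% of all NC peaks in each case. Conversely 3 of 19 ART scaffold peaks overlapped NC, against 1.48% of all ART peaks, and 3 of 11 PSR scaffold peaks, against 2.64% of all PSR peaks. For sharing between ART and PSR, a difference between scaffold peaks and the whole list was not detectable at this number of peaks.

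Peak lengths overlapped widely between the classes. Mitochondrial Arteridin peaks had a median of 125 bp in ORF (64 to 449) and 110 bp in CTR (52 to 579). Scaffold Arteridin peaks had medians of 96 bp (53 to 488) and 103 bp (52 to 518), against 80 and 78 bp on assembled chromosomes. The shortest length of a list, 53 bp in ORF and 52 in CTR, was found at 8 and 9 scaffold peaks and at 0 and 1 mitochondrial peaks. YBX1 scaffold peaks had medians of 554 bp in ART (254 to 1281), 322 bp in PSR (250 to 1233) and 629 bp in NC (297 to 1235), against 398, 371 and 285 bp on assembled chromosomes. On Y scaffolds the medians were 388 bp in ART and 309.5 bp in PSR.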

How the data were processed

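The 7 libraries comprised 5 ChIP libraries and 2 inputs; the inputs were not analysed here as files. Per the labels' protocols, sequencing was single-end at 50 nt for Arteridin and paired-end at 150 nt for YBX1. The tools named in the submitters' processing notes are Bowtie2, SAMtools, FastQC, HOMER and MACS2; versions, cutoffs, duplicate handling and build are not given there. The deposited lists, 1 per library and not pooled, give per peak a score, a fold (a ratio to the expected level), −log10 p and −log10 q, all from the authors' peak caller, narrow for Arteridin and broad for YBX1; narrow deposited lists also give the other value, the summit's distance from the peak start. Read totals are unknown. Peaks were classed by sequence name and compared by overlap of at least 1 bp within an antibody. Reads and expected level of narrow peaks were solved from fold, taken as (reads + 1) over (level + 1), and the Poisson p. Agreement within 0.0001 was required, which all Arteridin peaks met. The solution was tested on simulated data. It was also tried on the broad YBX1 peaks, most of which did not meet it. Intervals are 95% Wilson for shares and exact binomial for read ratios, and cover counting error only; duplicates could narrow them wrongly. A fold of 1.5 for differences in reads was chosen after the data were seen, as were the 4 kb stretches and the sums over regions. Python 3.11.15 with scipy 1.17.1 and pandas 2.3.3 was used. Members, rule and named regions were chosen with earlier results of these data known: on the mitochondrial genome, the 5 shared regions with the highest ORF fold and every region of a single list; on scaffolds, per antibody, the 5 scaffolds with the most peaks, the 6 shared regions with the highest fold (in ORF for Arteridin), the 3 highest by fold in each list alone, and YBX1 regions in all 3 lists. Other peaks named were chosen after their values were seen. No annotation or genome of this build was used.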

Additional observations from a re-analysis of the deposited data

How the results depend on the processing

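Of 106 alternative values, 72 stayed within the 95% interval (or, for counts, within 1.5 times) of the value reported and 34 moved. A −log10 q of at least 5 left 7 ORF and 5 CTR mitochondrial peaks, with sharing of 14.3% and 20%; 34 ORF, 51 CTR, 4 ART and 3 PSR scaffold peaks; 30 ORF and 44 CTR peaks on the densest scaffold, and 0 ART and 0 PSR peaks on chrY_KL568161v1_random. It moved the CTR scaffold share overlapping ORF to 47.1%, the ART share in PSR to 75% and the PSR share in ART to 100%. Median folds became 2.39 (ORF) and 2.45 (CTR) on the mitochondrial genome, and 8.29 (ORF), 8.15 (CTR) and 28.5 (ART) on scaffolds, and the median CTR scaffold length 130 bp. A −log10 q of at least 2 left 7 PSR scaffold peaks. Merging within 100 bp gave 89.5% for mitochondrial ORF peaks and 136 bp for CTR scaffold peaks. Reciprocal overlap of 50% gave 64.0% for mitochondrial CTR peaks, and 45.3% (ORF) and 34.9% (CTR) on scaffolds. Centres within 100 bp gave 68.0% for mitochondrial CTR peaks; within 1000 bp, sharing was 96.3% and 100% on the mitochondrial genome and 90.6% and 88.0% on scaffolds. Without the densest scaffold, sharing was 22.2% (ORF) and 15.4% (CTR). A higher −log10 q cutoff keeps fewer peaks by construction, and a reciprocal overlap of 50% matches fewer. The cutoff does not fix the direction of a share. At 5 it lowered both mitochondrial shares and raised those between ART and PSR, from 31.6% and 54.5%. Why these values moved was not tested. Sharing over all peaks was not computed at these settings. Whether the contrast with the whole lists holds at them is therefore not known. No paired analysis was possible because there was a single library for each condition. YBX1 sharing on the mitochondrial genome has no value, since no YBX1 peak lies there. Scaffold summits of 5 to 10 reads limit what can be seen: ratios at single regions have wide intervals.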

Other observations

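A position on an unlocalised Y scaffold of the YBX1 lists and one on a differently named scaffold of the Arteridin lists carry the same numbers. ART and PSR had peaks on chrY_KL568160v1_random from 2654380 to 2654803 and from 2654416 to 2654865, with folds of 2.66 and 2.59. ORF and CTR had peaks on NW_007906433.1 from 2654694 to 2654843 (14 reads, expected 1.88) and from 2654811 to 2654879 (17 reads, expected 1.85). It was the one case among scaffold positions above 100000 in which peaks of both antibodies overlapped by number. Whether both names stand for the same sequence was not tested, and the match was noticed after the values were seen.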
